A study of Mus musculus with 48 samples.

Results

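The 7 genes described here encode carriers that move organic anions across the membranes of kidney tubule cells. They are the uptake carriers Slco1a1 and Slco1a6, the efflux pumps Abcc2, Abcc3 and Abcc4, and the phosphate and urate carriers Slc17a1 and Slc17a2. Every probe set annotated to these symbols on the Affymetrix mouse 430A and 430B chips was taken, which gave 9 of 45137 probe sets, for 7 of 18193 genes with a symbol. Abcc4 was measured on 430B and the others on 430A. Slco1a1 and Slc17a2 had 2 probe sets each, and 8 of the 9 sets rose above the median signal of their array on at least 3 arrays.

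Whole kidneys of 72 mice were combined into 24 pools of 3 mice, and RNA of each pool was hybridised to both chips, which made 48 arrays. The 8 groups of 3 pools crossed genotype, diet and sex in mice aged 10 weeks. Hyp mice carry an X-linked mutation that inactivates the phosphate-regulating gene Phex and causes renal phosphate wasting, and the Hyp males here were Hyp/Y while the Hyp females were Hyp/+, with 1 normal allele left. Normal littermates were the controls. The groups were Hyp males on a low phosphorus diet, Hyp males on the control diet, normal males on the low phosphorus diet, normal males on the control diet, and the same 4 combinations in females. The low phosphorus diet (Teklad TD 86128) or the control diet (Teklad TD86129) was given for 3 days, and all mice drank deionized water.

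Organic anions such as bile salts, steroid conjugates, urate and many drugs are taken up by the proximal tubule and passed on into urine or blood. Slco carriers (the organic anion transporting polypeptides) exchange such anions across the membrane without using ATP, while Abcc pumps (the multidrug resistance proteins) drive conjugated anions out of the cell with ATP. The Slc17 carriers sit in the brush border, where Slc17a1 was first described as a sodium-phosphate cotransporter and later as a carrier of urate. Rodent kidneys are known for sex differences in several of these carriers, among them Slco1a1, which androgens raise.

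Signals were array intensities, and differences were tested on the log2 scale with limma across 18633 features of both chips, with Benjamini-Hochberg adjustment over all of them and a threshold of 0.05. The median signal was 165 to 211 on the 430A arrays and 50.9 to 68.3 on the 430B arrays, and replicate pools of a group correlated at 0.961 to 0.981. Xist (62.1 to 180 in males, 1458 to 2011 in females) and Eif2s3y (211 to 333 in males, 0.8 to 6.9 in females) separated every pool by its labelled sex. Of 12 kidney segment markers on the chips, 11 were above the array median on all arrays, while 8 of 9 liver markers were never above it. The exception among the segment markers, Slc7a13, was above it on 20 arrays and averaged 12165 in males and 244 in females. In whole kidney, fewer cells of a type and less RNA per cell cannot be told apart.

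The promoters of the members offer one feature that the selection did not use. RefSeq windows of 250 bases before and 50 bases after the annotated start (build GRCm38.p6) covered 6 of the 7 members in 8 windows. The core motif of the kidney and liver factor HNF1, written GTTAA, any 2 bases and ATTAA, was searched on both strands and occurred in 3 of these 8 windows, against 50 of all 32851 windows (0.152%). It occurred in none of the 39 other renal carrier genes that had a window. The motif was picked after the sequences had been read, so these comparisons describe the windows and cannot serve as a test. The bases before the start are shown for the 3 promoters that hold it, with the motif in capitals:
Abcc2, chr19:43782058-43782307, plus strand: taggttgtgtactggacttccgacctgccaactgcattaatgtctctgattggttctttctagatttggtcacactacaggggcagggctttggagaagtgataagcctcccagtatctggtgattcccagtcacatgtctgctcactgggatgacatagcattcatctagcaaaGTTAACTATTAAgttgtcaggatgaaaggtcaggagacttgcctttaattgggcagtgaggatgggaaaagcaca
Slc17a1, chr13:23870023-23870272, plus strand: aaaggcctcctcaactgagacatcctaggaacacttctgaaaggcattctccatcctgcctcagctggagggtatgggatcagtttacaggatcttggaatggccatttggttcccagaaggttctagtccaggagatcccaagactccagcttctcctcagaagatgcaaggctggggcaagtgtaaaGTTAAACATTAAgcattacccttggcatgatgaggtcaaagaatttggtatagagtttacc
Slc17a2, chr13:23806743-23806992, plus strand: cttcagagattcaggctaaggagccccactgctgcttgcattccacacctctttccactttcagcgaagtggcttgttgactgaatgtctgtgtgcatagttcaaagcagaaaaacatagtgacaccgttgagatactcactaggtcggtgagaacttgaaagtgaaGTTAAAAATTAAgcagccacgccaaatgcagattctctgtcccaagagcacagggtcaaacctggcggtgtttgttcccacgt
The match begins 75 bases before the start in Abcc2, 61 in Slc17a1 and 83 in Slc17a2, in the direction of transcription each time, and overlaps none of the other motifs searched. Slc17a1 had 2 windows, and the match lies in only one of them. The sequence of the match is GTTAACTATTAA in Abcc2, GTTAAACATTAA in Slc17a1 and GTTAAAAATTAA in Slc17a2. A match describes letters and does not show that a factor binds. Shorter motifs were common everywhere: TTCNNNGAA, the STAT5 site, lay in 8.3% of all windows, AGGTCA, an element of many nuclear receptors, in 16.3%, and AGAACA, an element of steroid receptors, in 19%. In the member windows the STAT5 site lay in 3 of 8 (Abcc4, Slc17a1 and Slc17a2), AGGTCA in 4 of 8 (Slco1a1, Abcc2 and both windows of Slc17a1) and AGAACA in 2 of 8 (Abcc4 and Slc17a1). AGGTCA occurred once on each strand of the Slco1a1 window. The full androgen response element (AGAACA, any 3 bases, TGTTCT) was present in 0.00913% of all windows and in no member window.

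All 7 carriers differed between the sexes, 3 higher in males and 4 higher in females, where 15.8% of all features passed the test. The members were chosen with earlier results of these data known, so their count describes them and does not test an enrichment. The directions cut across the transport classes: each class held at least 1 carrier that was higher in males and 1 that was higher in females. Slco1a1, Abcc2 and Slc17a1 were higher in males, and Slco1a6, Abcc3, Abcc4 and Slc17a2 were higher in females. Among all features the split was 1131 higher in males (6.07%) and 1822 higher in females (9.78%), which became 1276 and 1554 with quantile normalisation and 1695 and 969 with arrays scaled to a common median. The members kept their direction and passed the test in each of these scalings.

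**Figure D1:**
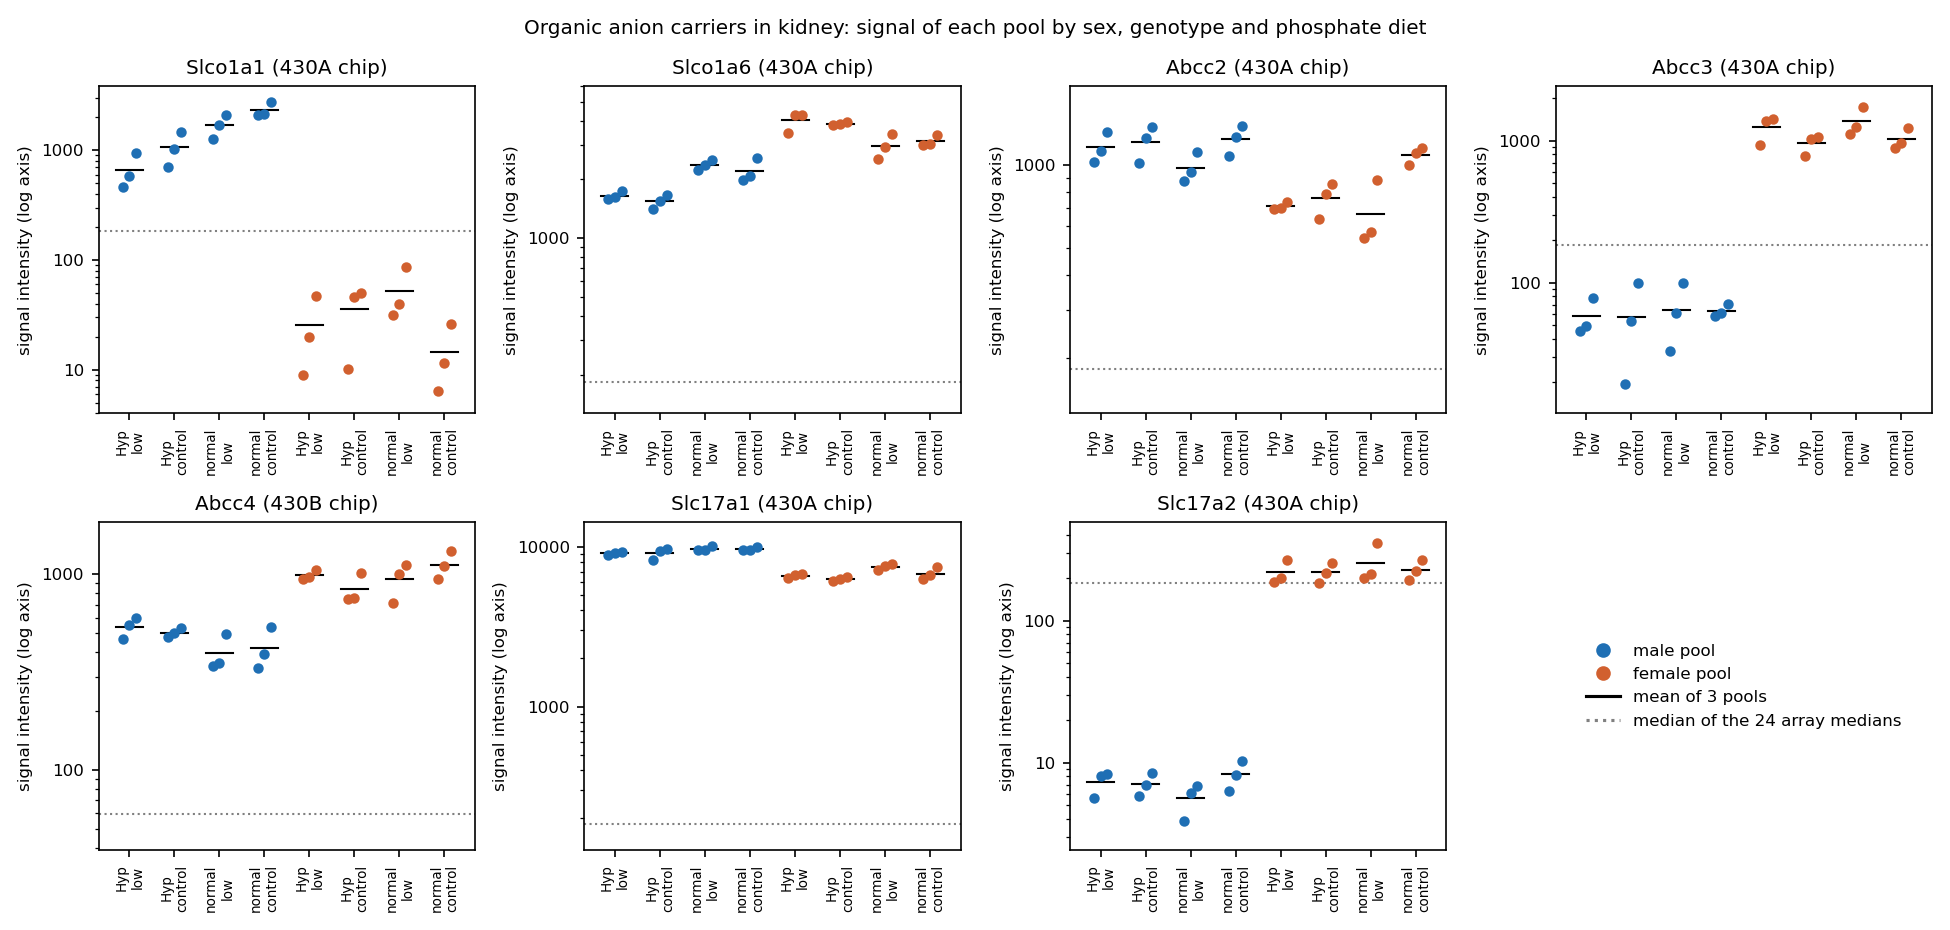
Signal intensity on a log axis in each of the 24 pools, for the probe set that represents each gene, with Hyp and low phosphorus groups to the left within each sex. Blue points are male pools, orange points female pools, black lines the mean of 3 pools, and the dotted line the median of the array medians. Slco1a1 stands high in the male pools, while Abcc3 and Slc17a2 stand high in the female pools.

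Slco1a1 (Oatp1a1), an uptake carrier of the brush border of the straight proximal tubule, was the member most raised in males. Probe set 1449844_at read 467, 1369 and 2752 as the lowest, median and highest of 12 male pools, against 6.4, 28.7 and 85.4 in 12 female pools. Probe set 1420379_at read 479, 2115 and 4266 in males, against 5.4, 12.6 and 89.5 in females. On both sets every male pool exceeded every female pool. Male pools were above the array median in 12 of 12 cases and female pools in 0 of 12. The log2 difference of male minus female was 5.70 ± 0.30 (SE) on 1449844_at (adjusted p = 8.03e-12) and 6.89 ± 0.31 on 1420379_at (adjusted p = 1.75e-11 over every probe set, of which 7.7% passed). With signals under the array median raised to it, the difference on 1449844_at was 2.72, a 6.58-fold higher signal in males.

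Slco1a6 (Oatp1a6), a neighbouring paralogue expressed mainly in kidney, ran the other way. Its signal was 1405, 1856 and 2569 as the lowest, median and highest in males, against 2548, 3433 and 4303 in females. The ranges of the sexes met at their edges, but within each of the 4 combinations of genotype and diet every male pool lay below every female pool. The share of all features that separate in this way was not counted. The log2 difference was -0.86 ± 0.06 (adjusted p = 1.33e-09), and females were 1.81-fold higher. On chromosome 6 the order of genes is Slco1a4, Slco1a1, Gm6614, Slco1a6 and Slco1a5. Slco1a4 and Slco1a5 were on the chip and did not pass the filter on low signal. Whether probes of one paralogue also bind transcripts of another was not tested.

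The 3 efflux pumps did not share a direction either. Abcc2 (Mrp2), which exports conjugated anions across the apical membrane, read 873, 1121 and 1378 in males, against 544, 763 and 1154 in females. The sexes overlapped over all pools. In 2 of the 4 combinations of genotype and diet they did not, with the share of all features again not counted. The log2 difference was 0.54 ± 0.08 (adjusted p = 1.06e-04), or 1.45-fold higher in males. Its set carries the suffix _s_at, which marks probes that match more than one transcript.

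Abcc3 (Mrp3), known in liver as a pump of the basolateral membrane, read 19.3, 60.0 and 99.4 in males, against 782, 1092 and 1727 in females. No male pool reached the array median and all 12 female pools exceeded it. The log2 difference was -4.32 ± 0.21 (adjusted p = 1.89e-12). With signals under the array median raised to it the difference was -2.65, which is 6.27-fold higher in females. Abcc4 (Mrp4), an apical pump of the proximal tubule that exports cyclic nucleotides and urate, read 333, 485 and 601 in males, against 716, 985 and 1313 in females. Every male pool was below every female pool, and the log2 difference was -1.07 ± 0.11 (adjusted p = 6.09e-07), or 2.11-fold higher in females.

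Slc17a1 (NPT1) and Slc17a2 (NPT3) lie on either side of Slc17a3 on chromosome 13 and also differed in direction. Slc17a1 read 8227, 9513 and 10152 in males, against 6154, 6622 and 7770 in females. The sexes did not overlap, and the log2 difference was 0.47 ± 0.04 (adjusted p = 9.40e-08), or 1.39-fold higher in males. Slc17a3, the gene between them, was also higher in males, by 0.56 ± 0.08 (adjusted p = 2.17e-05). Slc17a2 read 3.9, 6.95 and 10.3 on 1425033_at in males, against 185, 215 and 350 in females. The sexes did not overlap, with 0 of 12 male pools and 9 of 12 female pools above the array median. Its log2 difference was -5.04 ± 0.13 (adjusted p = 3.01e-17), but -0.36 with signals under the array median raised to it, since female signals were themselves close to that median. The second set, 1425034_at, read 1.7, 8.8 and 23.7 in males, against 7.1, 41.2 and 96.7 in females, and was never above the array median.

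Sexes that do not overlap were found for 5 of the 7 members (Slco1a1, Abcc3, Abcc4, Slc17a1 and Slc17a2), against 1.96% of all features. Of these, Slco1a1, Abcc3 and Slc17a2 passed the filter only through the sex where they were high, so the count is descriptive. Tests within each genotype and each diet gave 7 of 7 members in Hyp mice (background 7.18%), in normal mice (9.23%), on the low phosphorus diet (8.33%) and on the control diet (7.98%). The smallest of these was Abcc2 in normal mice, with a log2 difference of 0.38 ± 0.12 (adjusted p = 0.0488). That call was lost over every probe set without the filter (adjusted p = 0.114). Other markers moved with sex as well (background 15.8%). Of 12 kidney segment markers 5 were called, 2 higher in males and 3 higher in females. Of 8 genes placed in the straight proximal tubule, Slco1a1 among them, 7 were called, 4 higher in males and 3 in females. Of fat markers, 3 of the 3 that passed the filter were lower in males. Summed signals of the 4 on the chip were 1427 to 2356 in males and 1997 to 2948 in females. Summed liver markers were 524 to 1062 in males and 651 to 1713 in females. The part of these markers in the sex differences of the members was not tested.

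**Figure D2:**
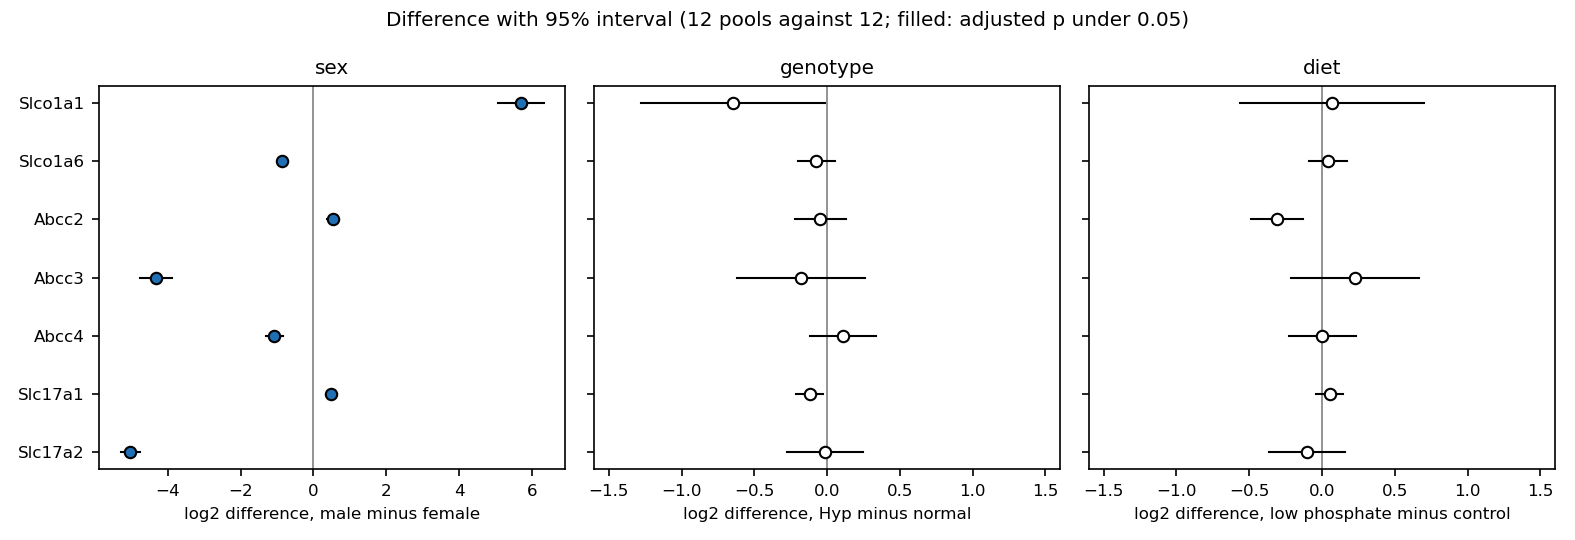
Log2 difference of each member for sex (male minus female), genotype (Hyp minus normal) and diet (low phosphate minus control), with 95% intervals, 12 pools against 12. Filled points passed the adjusted threshold of 0.05. All 7 points are filled for sex and none for genotype or diet, and the sex axis is wider than the other 2.

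The comparison of Hyp with normal mice asks what the mutation does to the carriers. Averaged over both sexes and diets, limma called 0 of 7 members (background 1.96%), and 2 had an unadjusted p under 0.05. The log2 differences of Hyp minus normal ran between -0.65 for Slco1a1 and 0.11 for Abcc4, with a median of -0.07 beside 0.00 for all features. Separated by sex, the 1 member called in males was Slco1a6 (background 1.07%), and 0 of 7 were called in females (0.687%, with an unadjusted p under 0.05 for Slco1a6 and Slc17a1).

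Slco1a6 moved in opposite directions in the sexes. Hyp males read 1405, 1601 and 1736 as the lowest, median and highest of 6 pools, against 1977, 2308 and 2569 in normal males. Hyp females read 3453, 3887 and 4303, against 2548, 3011 and 3413 in normal females. Every Hyp male pool lay below every normal male pool, as for 1.21% of features, and every Hyp female pool lay above every normal female pool, as for 0.864%. In males the log2 difference was -0.52 ± 0.09 (adjusted p = 0.00209), a mean of 1595 ± 113 in Hyp males and 2292 ± 233 in normal males (SD, n = 6 each). In females it was 0.37 ± 0.09, which missed the threshold (adjusted p = 0.0527), with 3938 ± 320 in Hyp females and 3050 ± 323 in normal females. Fitted over the female pools alone, the female difference was 0.37 ± 0.10 (adjusted p = 0.220, where 0.317% of features passed).

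The interaction of genotype with sex tests that contrast itself, and Slco1a6 was the 1 member of 7 that passed it, where 0.0805% of features did. Its interaction was -0.89 ± 0.12 on the log2 scale (adjusted p = 0.00117). Because Hyp males were Hyp/Y and Hyp females Hyp/+, this contrast cannot tell sex apart from the normal allele left in females. The male minus female difference was accordingly -1.30 ± 0.09 in Hyp mice and -0.41 ± 0.09 in normal mice. By pool, Slco1a6 read 1736, 1583 and 1620 in Hyp males on the low phosphorus diet, against 2504, 2245 and 2371 in normal males on that diet. On the control diet it read 1555, 1405 and 1670 in Hyp males, against 2569, 2085 and 1977 in normal males. The 2 genotypes did not overlap on either diet in males, a separation of 3 pools from 3 that was not counted over all features. Hyp females on the low phosphorus diet read 4284, 4303 and 3453, against 3413, 2548 and 2923 in normal females. Hyp females on the control diet read 3856, 3917 and 3814, against 3394, 3022 and 3000 in normal females. Hyp females were thus above normal females in every such comparison of pools. The male difference was -0.63, -0.54 and -0.40 in the pools labelled series 1, 2 and 3, and the female difference was 0.26, 0.57 and 0.29.

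**Figure D3:**
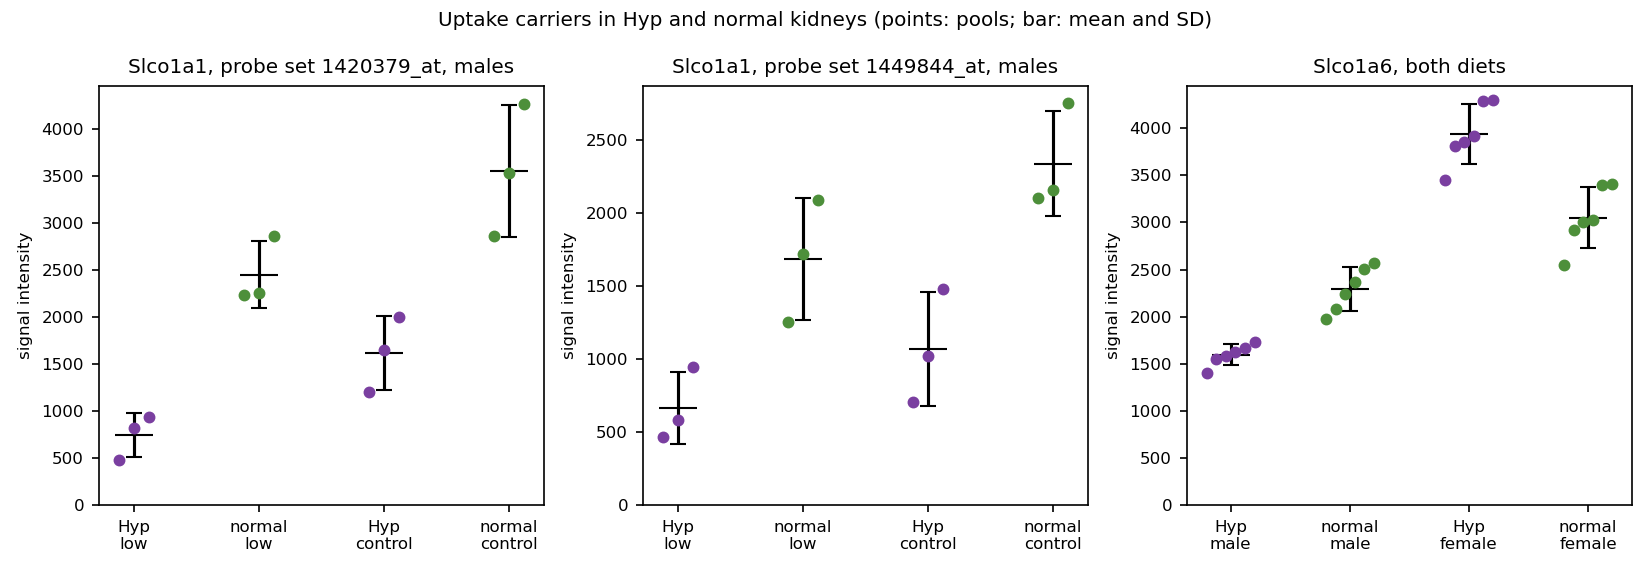
Signal intensity of Slco1a1 in male pools by diet (left, probe set 1420379_at; middle, 1449844_at) and of Slco1a6 by sex over both diets (right), with Hyp in purple left of normal in green. Points are pools and bars show mean and SD (3 pools for Slco1a1, 6 for Slco1a6). Hyp males lie lower for both genes, and Hyp females lie higher than normal females for Slco1a6.

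Slco1a1 was lower in Hyp males on both of its probe sets. On 1420379_at, Hyp males on the low phosphorus diet read 933, 479 and 815, against 2857, 2258 and 2235 in normal males on that diet. Hyp males on the control diet read 1995, 1649 and 1204, against 4266, 3535 and 2864 in normal males. Every Hyp male pool on this set lay below every normal male pool, with means of 1179 ± 560 in Hyp males and 3003 ± 783 in normal males (SD, n = 6 each). On 1449844_at, Hyp males on the low phosphorus diet read 943, 467 and 580, against 2090, 1716 and 1256 in normal males. Hyp males on the control diet read 1481, 1022 and 704, against 2752, 2103 and 2160 in normal males. The genotypes overlapped on this set only across diets, with means of 866 ± 368 in Hyp males and 2013 ± 498 in normal males.

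The test of this difference depends on which pools share the estimate of spread. Fitted over all 24 pools, where the scattered low signals of the females enter, the log2 difference in males was -1.28 ± 0.43 and missed the threshold (adjusted p = 0.247). Fitted over the 12 male pools alone, an alternative chosen after seeing the data, it was -1.28 ± 0.21 (adjusted p = 0.0131, where 0.864% of features passed), or 2.43-fold lower in Hyp males. Slco1a6 in the same male fit was -0.52 ± 0.09 (adjusted p = 0.0134). Leaving out each of the 12 male pools in turn kept both below the threshold, with adjusted p up to 0.0412 for Slco1a1 and 0.0494 for Slco1a6. Over every probe set without a filter, the male fit called 1420379_at (-1.46 ± 0.20, adjusted p = 0.0276, background 0.162%), but neither 1449844_at (adjusted p = 0.0998) nor Slco1a6 (adjusted p = 0.0879). The Slco1a1 difference in males was -1.02, -1.46 and -1.37 in series 1, 2 and 3. Its interaction of genotype with sex missed the threshold (-1.27 ± 0.60, adjusted p = 0.776). With signals under the array median raised to it, which sets all female pools to that median, the interaction was -1.23 ± 0.23 and passed (adjusted p = 0.0172). It missed the threshold in the other 31 alternatives, so whether the sexes differ in this effect depends on how the dim female signals are treated. Sex and the normal allele of Hyp/+ females cannot be told apart here either.

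Genes placed in the straight proximal tubule, the segment of Slco1a1, were read in males in both fits. Of the 8 on that list, which holds Slco1a1 itself, 5 rose in Hyp males and 0 fell in the fit over all pools (background 1.07%), and 5 rose and 1, Slco1a1, fell in male pools alone (background 0.864%). The amino acid carrier Slc7a12 averaged 1075 ± 312 in Hyp males and 341 ± 48.5 in normal males (SD, n = 6 each), a log2 difference of 1.62 ± 0.17. The steroid hydroxylase Cyp7b1 rose by 0.81, the organic anion carriers Slc22a7 and Slc22a19 by 0.75 and 0.63, and the glucose carrier Slc5a1 by 0.56. Slc7a13 was at 0.10 ± 0.24 (adjusted p = 0.971) and Atp11a at -0.02 ± 0.08 (adjusted p = 0.985) over all pools. Of 9 genes of the convoluted proximal tubule, 1 rose and 1 fell in Hyp males in either fit: Slc22a8 by 0.66 ± 0.09 and the glucose carrier Slc5a2 at -0.56 ± 0.09 (all pools). The phosphate carrier Slc34a1 was at -0.25 ± 0.09 in males (adjusted p = 0.268). Leukocyte markers summed to 3640 to 4780 in Hyp males, against 3209 to 3791 in normal males. Csf1r made up most of that sum (3027 ± 370 in Hyp males, 2522 ± 219 in normal males, SD). The log2 differences were 0.26 for Csf1r, 0.22 for Ptprc, -0.06 for Lyz2 and -0.01 for C1qa. Fat markers summed to 1687 to 2356 in Hyp males, against 1427 to 1980 in normal males, mostly through Fabp4. Their log2 differences were 0.33 for Fabp4, 0.35 for Adipoq and -0.03 for Retn. None of the 4 leukocyte or 3 fat markers tested was called for genotype in males in either fit, with 1 of each list at an unadjusted p under 0.05, and their part in the Hyp male difference was not tested.

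No efflux pump or Slc17 carrier was called for genotype in either sex. Abcc4 in males was at 0.38 ± 0.15 (adjusted p = 0.445), and in females at -0.16 ± 0.15 (adjusted p = 0.826). Abcc3, measurable in females, was at -0.11 ± 0.30 in them, with a 95% interval from -0.73 to 0.51. That fit over all pools includes the dim male signals. Fitted over the female pools alone, Abcc3 was at -0.11 ± 0.15 (adjusted p = 0.904, interval -0.44 to 0.22). Slc17a1 was at -0.12 ± 0.04 over both sexes (adjusted p = 0.262, interval -0.21 to -0.03). Such intervals do not show that the genotypes were alike.

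The low phosphorus diet, which in normal mice prompts the kidney to retain phosphate, was compared with the control diet over both genotypes and sexes. limma called 0 of 7 members (background 0.773%), with 1 at an unadjusted p under 0.05. That member was Abcc2, at -0.31 ± 0.08 for low phosphate minus control (adjusted p = 0.124). The call changes with the fit: with the replicate number as a block the adjusted p was 0.0232, with arrays scaled to a common median 0.0259, with quantile normalisation 0.0458, and without normal female pool 1 on the low phosphorus diet 0.0173. The difference was -0.23, -0.42 and -0.28 in series 1, 2 and 3. In all 4 male groups and in 0 of 4 female groups, Abcc2 was highest in series 1 and lowest in series 3. In normal mice Abcc2 read 1115, 944 and 873 in males on the low phosphorus diet, against 1378, 1266 and 1078 in males on the control diet. Normal females read 883, 544 and 574 on the low phosphorus diet, against 1154, 996 and 1107 on the control diet. The diets overlapped among normal males and not among normal females, 3 pools against 3 in each sex, a separation not counted over all features.

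In normal mice the difference of Abcc2 was -0.54 ± 0.12 and passed the threshold narrowly (adjusted p = 0.0467, background 0.467%). The call was lost when any of 18 of the 24 pools was left out. In Hyp mice, where Abcc2 read 1320, 1127 and 1025 in males on the low phosphorus diet against 1372, 1254 and 1021 on the control diet, the difference was -0.08 ± 0.12 (background 0.15%). Hyp females read 698, 738 and 693 on the low phosphorus diet, against 787, 857 and 636 on the control diet. The interaction of genotype with diet was 0.46 ± 0.17 and missed the threshold (adjusted p = 0.833), so the genotypes were not shown to differ in their response.

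Slco1a1 in males was lower on the low phosphorus diet without passing the test in the male fit: -0.59 ± 0.21 on 1449844_at (adjusted p = 0.493, background 0.215%), and -0.84 ± 0.20 on 1420379_at over every probe set (adjusted p = 0.372, background 0.0266%). Taken with genotype, the means of 1420379_at in males ordered the groups as Hyp on low phosphorus (742 ± 236), Hyp on control (1616 ± 396), normal on low phosphorus (2450 ± 353) and normal on control (3555 ± 701). Neighbours in this order did not overlap. The highest normal pool on low phosphorus and the lowest normal pool on control were close at 2857 and 2864. The groups were ordered by their own means, and how many of all features separate 3 pools from 3 was not counted. On 1449844_at, the set that represents the gene in the fits, the means stood in the same order, at 664 ± 249, 1069 ± 391, 1688 ± 418 and 2338 ± 359. There Hyp on low phosphorus reached 943 against a lowest pool of 704 in Hyp on control, and Hyp on control reached 1481 against a lowest pool of 1256 in normal on low phosphorus, so of the 3 neighbouring pairs only the normal diets did not overlap. Slc17a1, named for phosphate transport, was at 0.05 ± 0.04 for diet (adjusted p = 0.796), and Slc17a2 at -0.10 ± 0.13 (adjusted p = 0.886). Interactions of genotype with diet were called in 0 of 7 members (0.0161% of features, 2 members at an unadjusted p under 0.05), and of diet with sex in 0 of 7 (0% of features, 1 member unadjusted).

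The other renal carriers give the setting for the 7. Lists of 50 further genes were taken for organic anions, organic cations and drug efflux, of which 43 were on the chips and 32 passed the filter on signal. For sex, 21 of the 32 (65.6%) were called (background 15.8%), 11 higher in males and 10 higher in females. For genotype 10 were called (background 1.96%), 5 in each direction. The lists were chosen with earlier results of these data known, so these counts describe them and test no enrichment. Of 5 other Slco carriers, 4 differed by sex: Slco4c1 by 1.69 and Slco3a1 (mean signals of 1174 in males and 509 in females) were higher in males, while Slco2a1 at -0.59 and Slco4a1 at -0.50 were higher in females. Slco4c1 rose in Hyp mice by 0.77 ± 0.18 (adjusted p = 0.0303) and Slco3a1 fell by 0.30 ± 0.07 (adjusted p = 0.0230). Of 4 other Abcc genes, Abcc1 was lower in males (-0.48) and Abcc9, a channel subunit and not a pump, was higher (0.28). Of 4 other Slc17 carriers, Slc17a3 alone was called.

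The Slc22 organic anion carriers showed the widest sex differences among the 32 other carriers. For sex 10 of 11 were called (background 15.8%), 4 higher in males and 6 in females. Slc22a30 was higher in males by 3.19, and Slc22a6 (Oat1), the main basolateral uptake carrier, by 1.23. Slc22a27 at -3.66 and Slc22a29 at -2.94 were higher in females. By genotype 8 of the 11 were called (background 1.96%), 4 in each direction, and by diet 3 were (background 0.773%). Of 4 organic cation carriers, Slc22a2 (0.81) and Slc47a1 (0.57) were higher in males. Among the remaining apical carriers, the drug pump Abcb1a was lower in males (-0.96) and Abcg2, an efflux pump that carries urate, was higher (0.25).

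**Figure D4:**
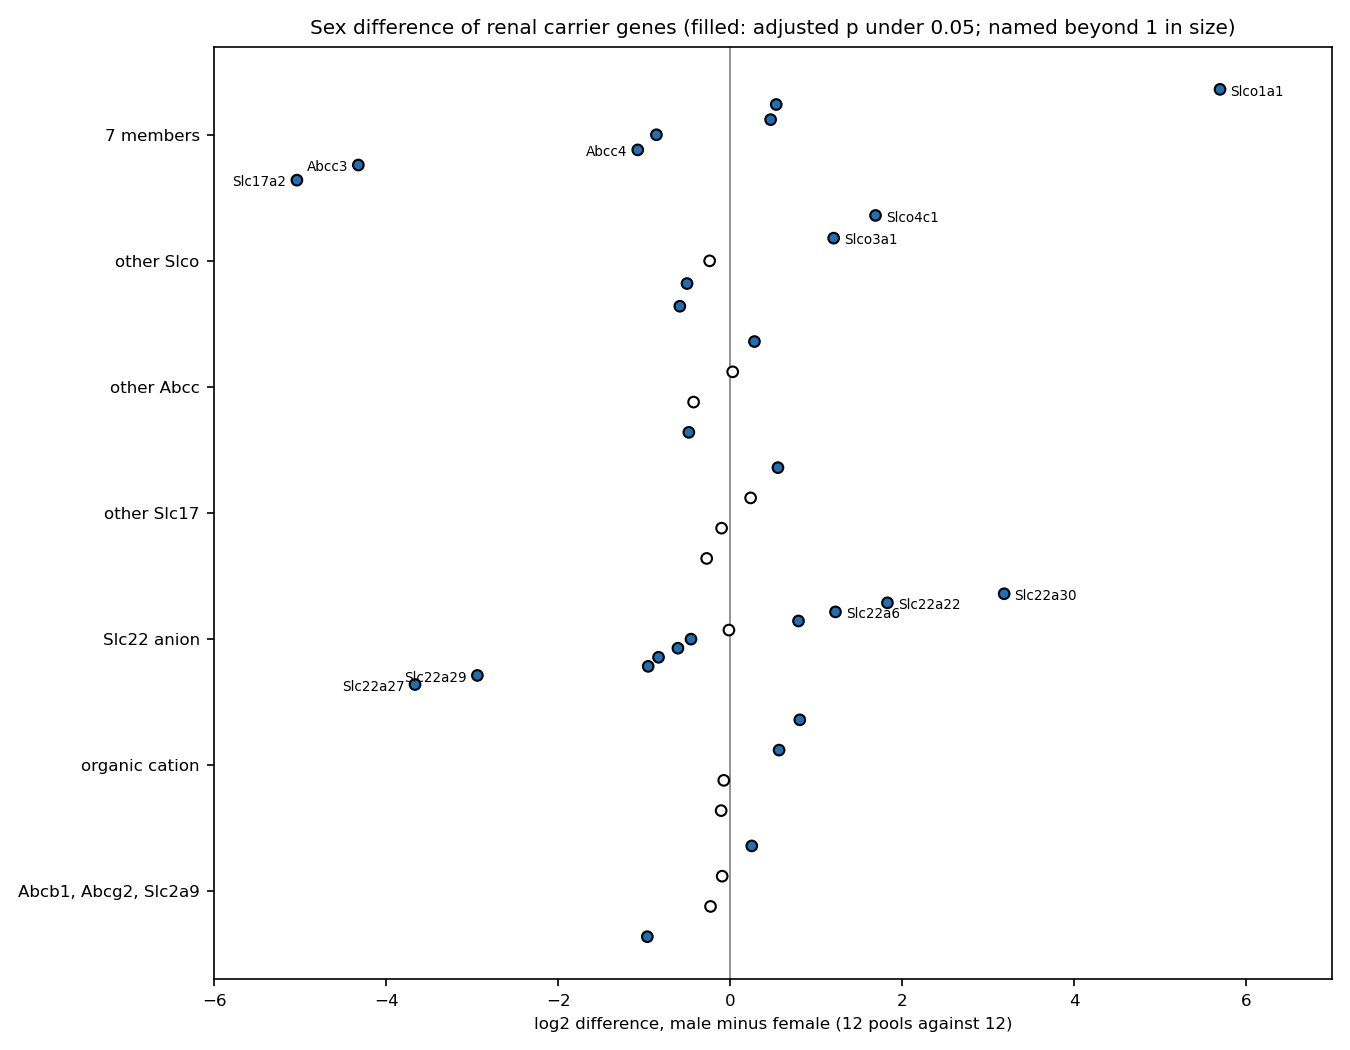
Log2 difference of male minus female for the 7 members (top row) and for the 32 other carriers by list, 12 pools against 12. Filled points passed the adjusted threshold of 0.05, and genes beyond 1 in either direction are named. Both directions occur among the members and among the Slco and Slc22 lists.

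Patterns over the 24 pools followed sex. By Pearson correlation of log2 signal, the feature most like Abcc3 was Xist (0.975), followed by Slc22a29 (0.973) and Slc17a2 (0.973). Slc17a2 was most like Cbr1 (0.987), and Slco1a1 most like Amacr (0.959), Acsm3 (0.950) and Lipo3 (0.950). Slc17a1 was most like Slc22a30 (0.965), Abcc4 like Etnk1 (0.922), Abcc2 like Slc16a9 (0.900) and Slco1a6 like Elovl2 (0.859). These values describe 24 pools that share 2 sexes.

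With the mean of each sex removed, correlations between members lay between -0.50 and 0.53. For Slco1a1, Abcc3 and Slc17a2, these values include the scattered log2 signals of the sex that never rose above the array median. Slco1a1 and Slco1a6 correlated at -0.79 over all pools and at 0.14 with sex means removed. Abcc3 and Slc17a2 correlated at 0.97 over all pools and at 0.21 with sex means removed. Others changed sign: Abcc2 and Abcc4 correlated at -0.45 over all pools and at 0.53, the highest value, with sex means removed, and Slco1a1 and Abcc2 at 0.56 and then -0.39. The lowest value was -0.50, for Slco1a1 and Abcc4, which had correlated at -0.92 over all pools. Abcc2 kept Slc16a9 as its most similar feature (0.800), while Slco1a6 was then most like Sdc2 (0.786), Abcc4 like Tap2 (0.792) and Slc17a1 like Aldh9a1 (0.818).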

How the data were processed

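Total RNA of whole kidney was hybridised to Affymetrix 430A and 430B chips, per the labels' protocols. The deposited values are signal intensities, which the authors made with GCOS 1.2 according to the submitters' processing notes. Which algorithm and scaling target they chose is not given in the sources used here, nor are detection calls. Over 100 probe sets shared by both chips, the mean after trimming 2% at each end was 1200 on every array, so the arrays were taken as already scaled.

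Signals were floored at 1 and log2 transformed. A feature was kept where its signal exceeded the array median on at least 3 arrays. For a gene with several kept probe sets, the one with the highest mean log2 signal stood for it, 430A taking precedence. For Slco1a1 this was 1449844_at, although its mean signal on the unlogged scale was lower (736, against 1055 for 1420379_at). The platform annotation gave 1 symbol for 35041 probe sets, several for 936 and none for 9160, and 34837 symbols were updated by Entrez identifier. The chips were fitted separately with limma 3.58.1 in R 4.3.3, with 8 group means and equally weighted contrasts, and p-values were adjusted over all 18633 features. A p-value refers to the spread between pools of 3 mice. The fit was tested on simulated data.

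The members and gene lists were chosen with earlier results of these data known. Up to 4 measured genes with the smallest adjusted p were named from each list, and the 3 features most correlated with each member. The alternatives were a pseudocount of 50, no filter, quantile or median scaling, adjustment within each chip, the mean of the kept probe sets, the replicate number as a block and each pool left out. Fits of one sex alone, signals raised to the array median and the segment lists in males were added after the data were seen. RefSeq promoter windows were used for 6 members.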

Additional observations from a re-analysis of the deposited data

Results flagged for a closer look

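The effect of genotype on Slco1a6 differed between the sexes by -0.89 ± 0.12 on the log2 scale (limma, adjusted p = 0.00117), with the Hyp minus normal difference at -0.52 in males and 0.37 in females. Among the other carriers, the effect of genotype on Slc22a8 (Oat3), a basolateral uptake carrier of organic anions, differed between the sexes by 0.71 ± 0.12 (adjusted p = 0.0169). Slc22a8 rose by 0.66 ± 0.09 in Hyp males relative to normal males (adjusted p = 1.42e-04) and was at -0.05 ± 0.09 in females (adjusted p = 0.923). In males the 2 carriers moved in opposite directions with genotype. For both carriers, sex cannot be told apart from allele dose, since Hyp males were Hyp/Y and Hyp females Hyp/+.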

How the results depend on the processing

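The sex calls of all 7 members held in each of 33 alternatives, and the Slco1a6 interaction in each of 32, with adjusted p up to 0.00545. The 28 sex tests within genotype or diet gave 26 to 28 calls with 1 pool left out. Over every probe set without the filter, Abcc2 missed the threshold in normal mice (adjusted p = 0.114) and on the control diet (adjusted p = 0.0732). The sets that represent the other members stayed called there. Dim signals limit the size of 3 sex differences, which ran between 2.72 and 6.29 for Slco1a1, between -4.46 and -2.65 for Abcc3 and between -5.08 and -0.36 for Slc17a2. Members called for genotype were 0 as reported, but 1 with a pseudocount of 50 and 1 with signals raised to the array median. That member was Slco1a1, at -0.63 (adjusted p = 0.0134) and -0.67 (adjusted p = 0.00105), in a range of adjusted p of 0.00105 to 0.630. In males alone within the fit over all pools it was then called as well (-1.23 and -1.28). Calls for the genotype by sex interaction were 1 as reported and 2 with signals raised, where Slco1a1 joined Slco1a6 (-1.23, adjusted p = 0.0172, in a range of 0.0172 to 0.908). Genotype calls within a diet or sex were 1 as reported, 2 with adjustment within each chip, median scaling, the mean of kept probe sets or quantile scaling, 4 with the pseudocount or signals raised, and 1 to 2 with 1 pool left out. Diet calls were 0 as reported, 1 with median or quantile scaling, and 0 to 1 with 1 pool left out. Diet calls within a genotype or sex were 1 as reported, 2 with median scaling, 0 without the filter, and 0 to 2 with 1 pool left out.

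The pools were not treated as paired, since the labels do not say what a series number marks and only 31 of 84 pairs with the same number had deviations that correlated above 0.1 (range -0.18 to 0.26). In the other direction, 18 of 24 pools correlated best with a pool of their own number, a hint from the data and not from the design. With the replicate block, members called were 7 for sex, 0 for genotype, 1 for diet (Abcc2, adjusted p = 0.0232) and 1 for the genotype by sex interaction, and genotype calls within a diet or sex were 2.

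Uncalled values near 0 changed sign in places. Slc17a2 for diet was 0.0106 with the pseudocount and 0.0104 with signals raised. The Slc17a2 genotype difference was 0.00393 with median scaling and 0.0289 with quantile scaling, and -0.0760 to 0.0482 with 1 pool left out. Slco1a1 for diet was 0.07 in the fit over all pools, which averages -0.59 in males and 0.72 in females. The female signals never exceeded the array median. Slco1a1 for diet was -0.20 with the mean of its sets, -0.16 with the pseudocount, -0.26 with signals raised, and -0.12 to 0.21 with 1 pool left out. With 1 pool left out, Abcc4 for diet was -0.0403 to 0.0503 and Abcc2 for genotype was -0.0795 to 0.00797. The cause was not tested.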
